A study of Ovis aries with 14 samples.

Results

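The common effect of triclosan on the fetal hypothalamus was measured by pooling both routes of infusion: 7 arrays with triclosan against 6 arrays with vehicle, with the infusion arm as a covariate. These 13 arrays came from 14 deposited ones. All groups were late-gestation sheep fetuses of about 130 days. In the fetal arm, fetuses carrying chronic catheters received vehicle (n = 4) or triclosan at 250 µg per day (n = 4) into their own veins for 2 days. In the maternal arm, the ewe's circulation received vehicle (n = 2 here) or triclosan at 100 µg per kg per day (n = 3) for 2 days. The doses differ between the routes, in amount and in unit, and how much reached the fetal brain is unknown here. Each array measured hypothalamic RNA with a single Cy3 channel on an Agilent sheep design. Nothing says whether arrays of the same group stem from different pregnancies, so the p-values measure the spread between these samples, which may be technical.

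Triclosan is an antibacterial and antifungal compound once common in soaps, toothpastes and cosmetics. The hypothalamus joins the brain to the pituitary: its neurons make releasing hormones such as GHRH for growth hormone and GnRH for the gonads, feeding peptides such as AgRP, NPY and the POMC products, and oxytocin. Glia around these neurons clear glutamate, and chaperones in every cell fold new proteins.

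Maternal vehicle replicate 3 was left out because at every spot it equalled 0.6 times replicate 1 plus 0.4 times replicate 2 of its group, with residuals of 0. Slides 1 and 2 held 1 array of each group, and slide 3 held 2 fetal vehicle arrays and 1 array of each triclosan group. Slide 5 held fetal triclosan replicate 4 alone, scanned on another day than the other arrays used. The median processed signal was lower with triclosan by 0.294 on the log2 scale (arm-adjusted; two-sided exact permutation p = 0.02 over 700 assignments within the arms). It ranged from 236.1 to 307.4 with fetal triclosan against 315.4 to 380 with fetal vehicle, and from 284.3 to 375.8 with maternal triclosan against 350.9 to 353.9 with maternal vehicle. The share of spots well above background differed by −1.61 percentage points (exact permutation p = 0.27). The difference between early and late probes of the same transcript, a sign of RNA integrity, differed by −0.124 (exact permutation p = 0.306 over 24 transcripts). Of 10 hypothalamic peptide genes, 9 were well above background on all 13 arrays. None of the neuron or oligodendrocyte markers on the lists was measured under a gene name.

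Every value below comes from a 60-base probe. The probes shown are those behind the results on which this account turns and are printed as the array's scanner files give them. GHRH has 2 probes whose shared 58 bases are in capitals, so they sample nearly the same stretch and are no independent check of each other.
GHRH first probe: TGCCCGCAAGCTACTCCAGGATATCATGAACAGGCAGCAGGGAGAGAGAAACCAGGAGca
GHRH second probe: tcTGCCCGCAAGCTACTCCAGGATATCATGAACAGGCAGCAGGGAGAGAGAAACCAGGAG
HBB probe: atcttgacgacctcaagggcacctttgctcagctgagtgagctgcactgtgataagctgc
AHSP probe: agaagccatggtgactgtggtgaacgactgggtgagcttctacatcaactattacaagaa
HSP90AA1 probe: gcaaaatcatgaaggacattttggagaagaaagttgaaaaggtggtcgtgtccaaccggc
PDIA4 probe: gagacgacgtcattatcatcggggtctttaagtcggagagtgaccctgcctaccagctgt
KDR probe 1: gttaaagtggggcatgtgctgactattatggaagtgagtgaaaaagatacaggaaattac
KDR probe 3: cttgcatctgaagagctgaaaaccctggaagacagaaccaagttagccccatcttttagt
KDR is shown at 2 places because its probes did not move alike, as given with the endothelial genes.

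With each array scaled to its 75th percentile, more named genes were lower than higher with triclosan, and with median scaling the balance turned (79 higher, 40 lower). Of 888 named genes, 104 passed the adjusted threshold of 0.05 in limma's moderated test, 40 higher and 64 lower with triclosan. GHRH (2.59 on the log2 scale, SE 0.70) had the largest rise and the glutamate receptor gene GRM3 (−1.44, SE 0.29) the largest fall. On this scale a difference of 1 is a 2-fold change. Over all 13738 probes, 1675 passed (12.2%), of which 550 (4.00%) were higher and 1125 (8.19%) lower. The named genes' share of 11.7% lies near that background. A gene list below with a share of calls near or under it is not set apart from the rest. An unadjusted p under 0.05 was found at 3887 probes, where chance gives 687. The lowest adjusted p was 0.00674. For 57 of the 104 called genes, all triclosan arrays lay beyond the vehicle arrays of their arm, in the same direction in both arms. Lack of overlap, given below for single genes, is thus usual for a called gene and adds no support to its call.

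These counts rest on the arm covariate and on each of several arrays. Without the covariate 29 probes passed. Leaving out a single array gave 717 (fetal vehicle replicate 3), 801 (fetal vehicle replicate 1), 828 (fetal vehicle replicate 2), 908 (fetal triclosan replicate 1), 1105 (fetal vehicle replicate 4) and 1110 (maternal triclosan replicate 2), with the other fits between 1305 and 2219. Of the 104 named genes, 30 kept the call in all 13 such fits and under 15 other processing alternatives, the covariate aside: 23 falls and 7 rises. The balance of directions rests on the scaling, since median scaling in place of the 75th percentile called 1201 probes higher and 681 lower, the median over all probes being 0.11 in place of −0.05. A fall or rise is therefore relative to the 75th percentile of each array.

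**Figure D1:**
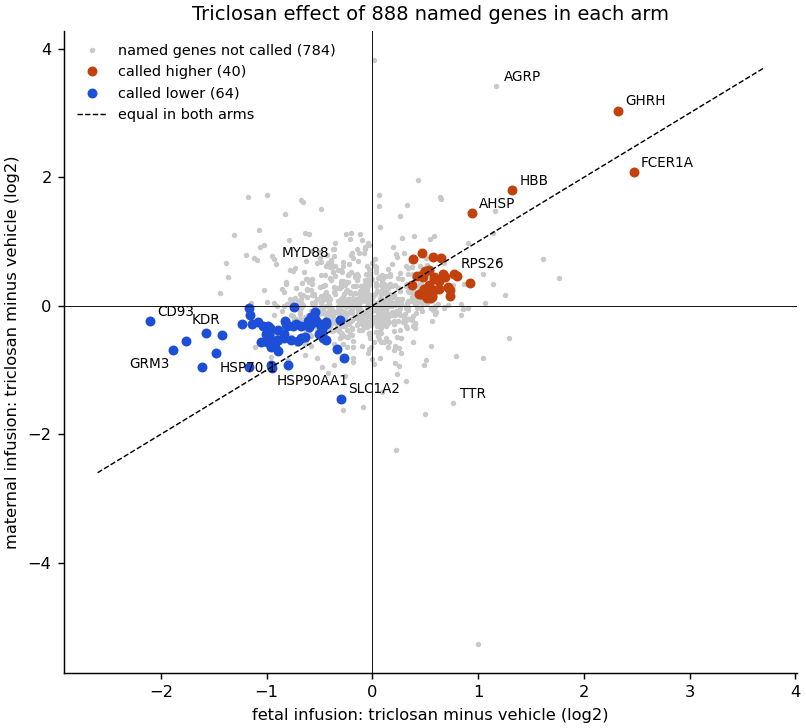
Triclosan minus vehicle (log2) for 888 named genes with fetal infusion (horizontal axis) and maternal infusion (vertical axis); filled points were called in the common effect, 40 higher (orange) and 64 lower (blue), grey points were not called, and the dashed line marks equal effects. Called falls such as CD93 (−2.10 and −0.24) lie nearer the horizontal axis than HSP90AA1 (−0.80 and −0.92), and SLC1A2 (−0.30 and −1.45) lies on the other side of the line.

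Of 8 measured genes of heat shock and protein folding in the endoplasmic reticulum, 5 fell and 0 rose, with a list median of −0.56 beside −0.04 for all named genes. That list leaves out ERP29, another protein of the endoplasmic reticulum, which was called higher (0.37, limma adjusted p = 0.0326). The call of ERP29 was lost with quantile normalisation and in 8 of 13 fits without 1 array. HSP90AA1, the stress-inducible cytosolic chaperone that holds steroid receptors and kinases in shape, was at 3.29, 3.44, 3.34 and 3.43 on the fetal vehicle arrays and at 2.41, 2.72, 2.56 and 2.59 on the fetal triclosan arrays. It was at 3.86 and 3.74 with maternal vehicle and at 2.78, 2.66 and 3.20 with maternal triclosan (log2 signal relative to the 75th percentile, as in all levels below). Every triclosan array lay below every vehicle array of both arms. The common difference was −0.85 (SE 0.10, n = 7 and 6, limma adjusted p = 0.00674), −0.80 with fetal and −0.92 with maternal infusion, and it also passed without the arm covariate (adjusted p = 0.0364).

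HSP70.1, an inducible heat shock protein of the Hsp70 family, differed by −1.2 (SE 0.22, limma adjusted p = 0.0102, both probes called): it fell by 1.48 in the fetal and by 0.73 in the maternal arm. Its levels were 0.71, 0.83, 0.73 and 0.91 with fetal vehicle and −0.42, −1.54, −0.22 and −0.55 with fetal triclosan. They were 1.13 and 1.21 with maternal vehicle and 0.27, 0.19 and 0.86 with maternal triclosan. The groups did not overlap within either arm, and maternal triclosan replicate 3 came closest to its vehicle arrays. PDIA4, which forms disulphide bonds in proteins of the endoplasmic reticulum, fell by 0.95 (SE 0.17), by 0.96 and 0.93 in the fetal and maternal arms. It was at −1.61, −1.48, −1.27 and −1.67 with fetal vehicle against −2.83, −2.91, −2.28 and −1.86 with fetal triclosan, and at −0.61 on both maternal vehicle arrays against −1.64, −1.70 and −1.28 with maternal triclosan. HSPA5, the lumenal chaperone BiP, fell by 0.58 (SE 0.12), and ATF6, a membrane-bound sensor of unfolded protein, by 0.47 (SE 0.12). The call of ATF6 was lost under quantile normalisation and 5 other processing alternatives besides the missing covariate, and without fetal vehicle replicate 1 or 2 or maternal vehicle replicate 1. XBP1, a transcription factor of the same response, was at −0.54 (SE 0.17, limma adjusted p = 0.061), DDIT3 at −0.03 (SE 0.23) and ATF4 at 0.09 (SE 0.12), none of which passed.

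**Figure D2:**
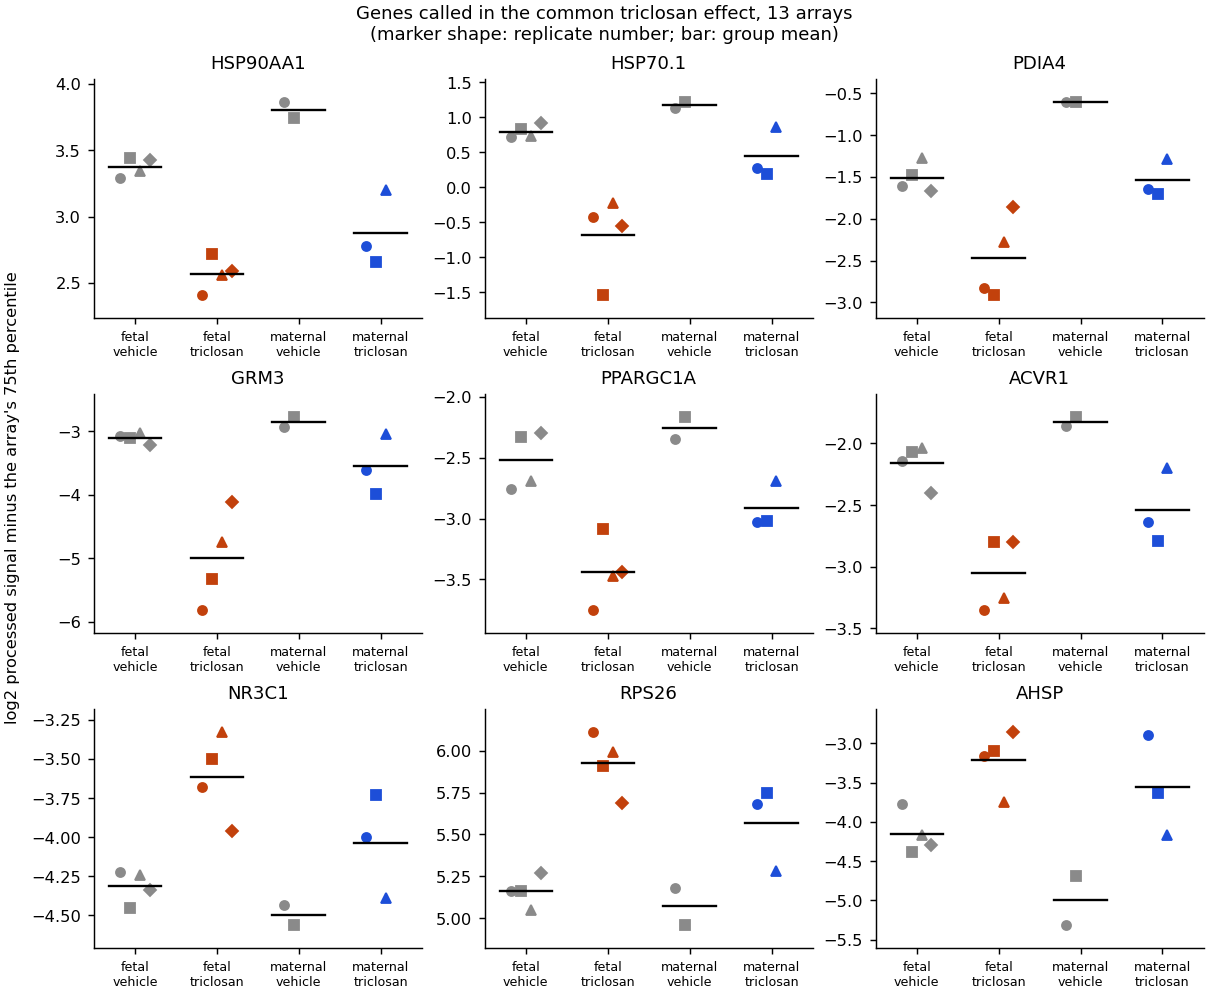
Log2 processed signal minus the array's 75th percentile for 9 genes called in the common effect, on 13 arrays in 4 groups; each point is an array, its shape is the replicate number of the labels, and bars are group means. For all 9 genes the triclosan arrays lie on 1 side of the vehicle arrays of their arm, and maternal triclosan replicate 3 (blue triangle) is the triclosan array nearest to vehicle in the maternal panels.

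Of 16 measured genes of neurotransmission, 5 fell and 1 rose (median −0.23). GRM3, a metabotropic glutamate receptor of glia and presynaptic terminals, was at −3.08, −3.11, −3.02 and −3.21 with fetal vehicle and at −5.81, −5.33, −4.74 and −4.11 with fetal triclosan. With maternal infusion it was at −2.93 and −2.78 (vehicle) and −3.61, −3.99 and −3.04 (triclosan). No triclosan array reached a vehicle array of its arm, but the fetal fall of 1.89 (SE 0.32) stood beside a maternal fall of 0.69 (SE 0.41). GRM4, a presynaptic receptor, rose by 0.55 (SE 0.12). Among glutamate transporter genes SLC1A1, the neuronal carrier, fell by 0.69 (SE 0.13) and SLC1A3, a carrier of astrocytes, by 0.68 (SE 0.14). With normexp background correction and quantile normalisation GRM3 was at −0.76 and SLC1A1 at −0.26, both still called.

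SLC1A2, the main astrocyte glutamate transporter, differed from the rest in its arms. It was at −1.99, −1.97, −2.22 and −2.22 with fetal vehicle against −1.92, −2.64, −2.55 and −2.48 with fetal triclosan, which overlap. With maternal infusion it was at −1.59 and −1.35 against −3.10, −3.07 and −2.57, which do not. The common fall of 0.73 (SE 0.21, limma adjusted p = 0.0405) combined a fetal difference of −0.30 and a maternal one of −1.45, 1 of its 3 probes was called, and the call was lost in 9 of 13 fits without 1 array and under 7 processing alternatives.

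Of 6 measured astrocyte markers, 3 fell and 0 rose (median −0.62): SLC1A2, SLC1A3 and FGFR3, a growth factor receptor of astrocytes and their precursors, which fell by 1.36 (SE 0.27). GFAP, the filament protein that defines astrocytes, was at −0.56 (SE 0.27, limma adjusted p = 0.191) and the water channel gene AQP4 at 0.15 (SE 0.10), so the defining markers did not pass. The summed signal of the 6 markers, in multiples of the array's 75th percentile, ran from 71.7 to 87.3 with fetal vehicle and from 74.2 to 106 with fetal triclosan, and from 76.1 to 81.3 and 73.8 to 86 in the maternal groups, which overlap in both arms. Such sums are carried by their bright members. SLC1A2, below the 75th percentile on every array, adds little to them, so their overlap does not bear on its fall. In bulk tissue, fewer cells of a type and less RNA per cell cannot be told apart. FGFR1, a related receptor with a wider range of cells, fell by 0.74 (SE 0.15). With normexp background correction and quantile normalisation FGFR3 was at −0.42 and FGFR1 at −0.40, both still called. FGFR1 and FGFR3 were the calls among 24 measured genes of the TGF beta, BMP, WNT and FGF families (2 lower, 0 higher, median −0.01). That share is below the 12.2% of all probes.

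Genes of lipid uptake, synthesis and oxidation fell in 5 of 14 cases, with 0 rises and a list median of −0.26 that was 0.00 with the authors' deposited values. ACLY, which makes cytosolic acetyl-CoA for lipid synthesis, fell by 0.81 (SE 0.18), and SCD, the desaturase that makes monounsaturated fatty acids, by 0.56 (SE 0.14). SCD lost the call without fetal vehicle replicate 1, 2 or 3, maternal vehicle replicate 1 or fetal triclosan replicate 1. CPT1A, which admits long-chain fatty acids to mitochondria, fell by 0.76 (SE 0.17). PPARGC1A, which drives mitochondrial gene expression as a coactivator, was at −2.76, −2.33, −2.69 and −2.30 with fetal vehicle and −3.75, −3.09, −3.47 and −3.44 with fetal triclosan. It was at −2.35 and −2.17 against −3.03, −3.02 and −2.69 in the maternal groups. Neither arm overlapped, and the common fall was 0.82 (SE 0.13, limma adjusted p = 0.0085), with 2 of its 3 probes called. With normexp background correction and quantile normalisation PPARGC1A was at −0.51 and SCD at −0.32. SHMT1, an enzyme of folate metabolism, fell by 0.87 (SE 0.20), a call lost without fetal vehicle replicate 3.

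Of 8 measured endothelial and pericyte markers, 4 fell and 0 rose (median −0.30): KDR, CD93, ABCB1 and SLC2A1. Leaving out any 1 of fetal vehicle replicates 1 to 4, fetal triclosan replicates 1 and 3 or maternal triclosan replicate 2 left 1 call, and leaving out maternal vehicle replicate 2 or fetal triclosan replicate 2 left 2. Quantile normalisation, median scaling and the slide as a block left 2, and the authors' deposited values gave 3 lower and 1 higher. KDR, through which vascular endothelial growth factor signals to endothelium, was at −3.13, −3.10, −3.26 and −3.23 with fetal vehicle and −4.93, −4.97, −4.75 and −4.36 with fetal triclosan. With maternal infusion it was at −3.21 and −3.03 against −3.59, −3.87 and −3.16. The fetal arrays lay far apart and the maternal ones overlapped, with a fall of 1.57 (SE 0.17) against 0.42 (SE 0.22). The KDR probes disagreed. Probes 3 and 4 gave −1.14 (SE 0.21) and −1.49 (SE 0.25) in the common effect, whereas probes 1 and 2, whose sequences overlap, gave −0.43 (SE 0.17, adjusted p = 0.107) and −0.41 (SE 0.19, adjusted p = 0.178) in limma's test and did not pass. With normexp background correction and quantile normalisation KDR was at −0.64, still called.

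CD93, found on endothelium and on myeloid cells, differed by −1.4 (SE 0.39, limma adjusted p = 0.0375), with −2.10 in the fetal and −0.24 in the maternal arm. Its call was lost without any 1 of fetal vehicle replicates 1 to 4, fetal triclosan replicates 1 and 3, and maternal triclosan replicate 2, and with quantile normalisation. ABCB1, the efflux pump of the blood-brain barrier, at −0.42 (SE 0.13) and SLC2A1, its glucose transporter, at −0.37 (SE 0.11) passed narrowly (limma adjusted p = 0.0467 and 0.0444). They lost the call in 9 and 11 of the 13 fits without 1 array, and both lost it with median scaling and with the slide as a block. PECAM1, an adhesion molecule that defines endothelium, was at −0.23 (SE 0.14) and did not pass. The summed signal of the 8 markers ran from 3.89 to 4.76 with fetal vehicle and from 2.75 to 3.24 with fetal triclosan, with no overlap, and from 3.98 to 4.64 and 3.7 to 4.55 in the maternal groups, which overlap. Its part in these results was not tested.

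ITGAM, the integrin CD11b of microglia and other myeloid cells, fell by 0.96 (SE 0.22), by 0.95 in the fetal and by 0.97 in the maternal arm. It was at −4.07, −4.38, −4.00 and −3.84 with fetal vehicle and −4.89, −5.70, −4.80 and −4.73 with fetal triclosan. In the maternal arm it was at −3.69 and −3.78 against −4.47, −5.47 and −4.18. The groups did not overlap in either arm, and 1 of its 2 probes was called. ITGAM was at −0.46 with normexp background correction and quantile normalisation, still called. The other 3 measured microglia and macrophage markers did not pass, CD14 being at −0.01 (SE 0.14) and FCER1G at 0.28 (SE 0.15). The summed signal of the 4 markers ran from 0.698 to 1.03 with fetal vehicle and 0.941 to 1.12 with fetal triclosan, and from 1.04 to 1.07 and 0.944 to 1.07 in the maternal groups. These sums overlap in both arms, but ITGAM, at −3.69 or below on every array, adds little to them.

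Several signalling genes fell as well. ACVR1, a type I receptor for BMP and activin ligands, fell by 0.82 (SE 0.13), with no overlap of the groups in either arm. Of 19 measured genes of the growth hormone and IGF axis, 2 fell and GHRH rose, a share near the 12.2% of all probes. The falls were STAT5A, which carries the signal of the growth hormone receptor, by 0.74 (SE 0.15) and IGF1R, the receptor for IGF1, by 0.61 (SE 0.16). JUND, an AP-1 subunit, fell by 0.82 (SE 0.20), 1 call among 6 immediate early genes that was lost without fetal vehicle replicate 1, 2 or 3. TNFRSF1A, a receptor for tumour necrosis factor, fell by 0.62 (SE 0.16), the single call among 28 inflammation genes (median −0.07). That list leaves out IKBKB, a kinase gene of NF-kappaB signalling, which was called lower as well (−0.74, limma adjusted p = 0.0367). The call of IKBKB was lost in 8 of 13 fits without 1 array. TRAF3, a signalling adaptor gene also off that list, was called lower too (−0.78, limma adjusted p = 0.0106). Of all alternatives, TRAF3 lost the call only without the arm covariate. The call of TNFRSF1A was lost with the authors' deposited values, and those of TNFRSF1A and IGF1R without any 1 of the 4 fetal vehicle arrays. TNFRSF1A also lost it without maternal triclosan replicate 2 and with normexp background correction. With normexp and quantile normalisation ACVR1 was at −0.46, STAT5A at −0.40 and IGF1R at −0.33, all still called. FBXO32, a ubiquitin ligase of muscle wasting, fell by 0.88 (SE 0.24), and TUBA4A, an alpha tubulin, by 1.09 (SE 0.27). TUBA4A lost the call without fetal vehicle replicate 1, 2 or 3 or fetal triclosan replicate 1. FBXO32 lost the call with the slide as a block, and without any 1 of the 4 fetal vehicle arrays or of fetal triclosan replicates 1 to 3.

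MC5R, a melanocortin receptor and the single call among 16 appetite genes, was well above background on 3 of 4 fetal vehicle arrays and on 0 of 4 fetal triclosan arrays. It was at least 1.17-fold higher with fetal vehicle, each dim value being raised to the lowest signal well above background on its array (limma adjusted p = 0.0156 for the common effect). The call of MC5R was lost with normexp background correction.

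The largest rise was that of GHRH, the releasing hormone for growth hormone. It was at −4.07, −4.81, −4.50 and −1.60 with fetal vehicle and at 0.29, −1.10, −1.01 and −3.89 with fetal triclosan. With maternal infusion it was at −6.17 and −3.84 (vehicle) and −2.41, −1.92 and −1.58 (triclosan). The fetal groups overlapped, because fetal vehicle replicate 4 was high and fetal triclosan replicate 4 low, and the maternal groups did not. The common difference was 2.59 (SE 0.70, limma adjusted p = 0.0323), 2.32 in the fetal and 3.04 in the maternal arm. Within slide 1 the GHRH differences were 4.35 (fetal) and 3.77 (maternal), within slide 2 they were 3.72 and 1.92, and within slide 3 the fetal difference was 2.04. The limma adjusted p of GHRH rose above 0.05, to at most 0.0743, without any 1 of fetal vehicle replicates 1 to 3, maternal vehicle replicate 1, fetal triclosan replicates 1 to 3 or maternal triclosan replicate 2. The GHRH call was also lost without the arm covariate. The difference itself stayed between 1.80 and 3.1 under all alternatives.

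The other 9 hypothalamic peptide genes had positive differences in the common effect, and none passed with all 13 arrays and the settings used throughout. Of the alternatives, 11 called TAC3, 7 called SST, 7 called POMC, 3 called AGRP and 3 called NPY. The slide as a block and array weights each called all of these 5 genes. With the slide as a block, fetal triclosan replicate 4, alone on its slide and lowest of its group for all 5, carries no weight. That fit is therefore no separate check from leaving this array out, as done below. SST, the inhibitor of growth hormone release, stood at 1.14 (SE 0.39) and TAC3, the neurokinin B gene of the GnRH pulse generator, at 0.93 (SE 0.29). The feeding peptide genes AGRP and NPY, which raise food intake, stood at 2.01 (SE 0.85) and 1.03 (SE 0.43), and POMC, the precursor of the satiety signal alpha-MSH, at 1.03 (SE 0.37). The limma adjusted p values of these 5 genes lay between 0.0573 (TAC3) and 0.141 (AGRP). GNRH1, which drives the reproductive axis, was at 1.28 (SE 0.53), GAL, the galanin gene, at 0.68 (SE 0.36), PMCH, the melanin-concentrating hormone gene, at 0.56 (SE 0.24) and OXT at 0.43 (SE 0.35).

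Fetal triclosan replicate 4 was the lowest of its group for all 10 peptide genes, and fetal vehicle replicate 4 the highest of its group for 8. AGRP, for example, was at −5.33, −4.33, −3.24 and −2.32 with fetal vehicle, at −0.68, −1.48, −2.39 and −6.0 with fetal triclosan, at −5.73 and −3.85 with maternal vehicle, and at −2.16, −1.35 and −0.60 with maternal triclosan. Without fetal triclosan replicate 4, 6 of the 10 passed in limma's test: GHRH (3.1), AGRP (2.75), SST (1.46), NPY (1.44), POMC (1.21) and TAC3 (1.17). That array was singled out after its values were seen. It lay alone on its slide and was scanned on another day than the other arrays used, so the array, its slide and its scan day cannot be told apart. How much of each hypothalamic nucleus a sample held was not tested.

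**Figure D3:**
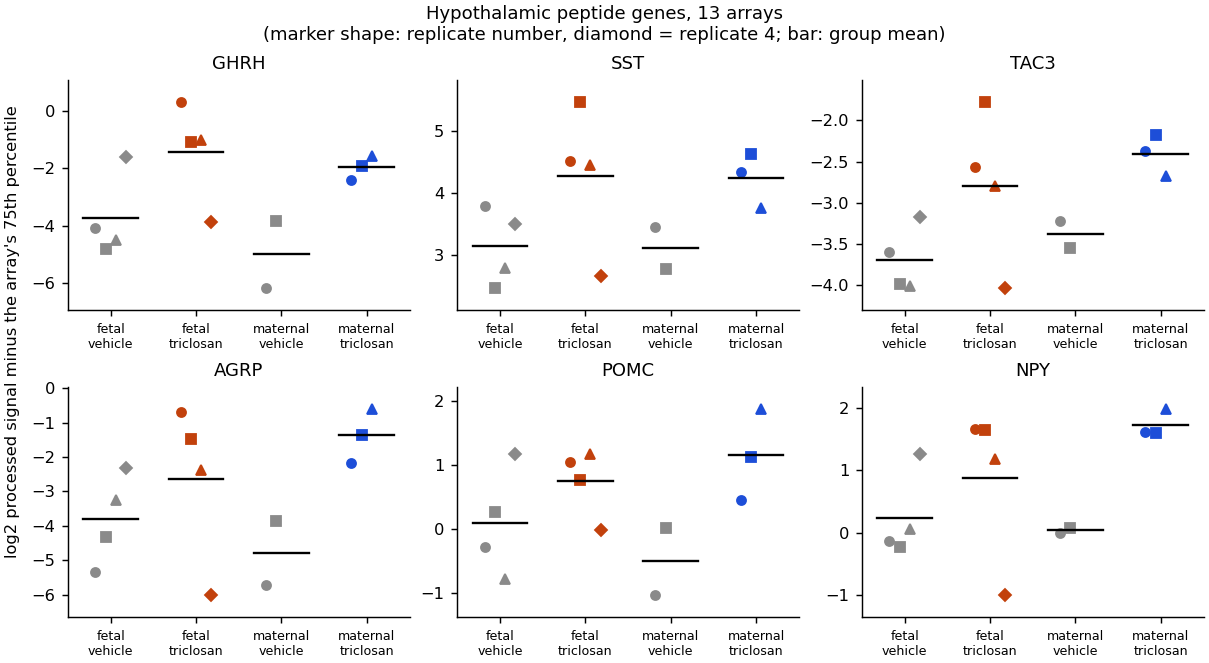
Log2 processed signal minus the array's 75th percentile for 6 peptide genes on 13 arrays; points are arrays, shapes are replicate numbers and bars are group means. The orange diamond, fetal triclosan replicate 4, is the lowest of its group in all 6 panels (GHRH −3.89, AGRP −6.0), and the 3 maternal triclosan arrays lie above both maternal vehicle arrays.

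Receptor and hormone genes with smaller rises included the glucocorticoid receptor gene NR3C1, through which cortisol acts, at 0.60 (SE 0.13). Its fetal levels were −4.22, −4.45, −4.24 and −4.34 with vehicle and −3.68, −3.50, −3.33 and −3.96 with triclosan, and its maternal levels −4.43 and −4.56 against −4.00, −3.73 and −4.39. The groups did not overlap within the arms, but the call of NR3C1 was lost with normexp background correction (0.34). It was the single call among 11 stress axis genes. OXTR, the oxytocin receptor gene, rose by 0.64 (SE 0.17) and TAC1, the substance P precursor gene, by 0.36 (SE 0.10). These were the rises among 21 reproductive axis genes, where ACVR1 fell (median 0.14), a share of calls near the 12.2% of all probes. OXTR and TAC1 lost the call in 6 and 7 of the 13 fits without 1 array, in both cases without fetal vehicle replicate 2 or 3, fetal triclosan replicate 3 or maternal triclosan replicate 2. OXTR also lost it with normexp background correction (0.22), and TAC1 and TIMP1 with quantile normalisation and with the authors' deposited values. PCNA, the DNA polymerase clamp, rose by 0.47 (SE 0.12), the single call among 8 cell cycle genes. That list leaves out the cyclin gene CCND3 (−0.38) and the replication gene RPA1 (−0.71), which were called lower. CCND3 lost the call in 10 of the 13 fits without 1 array. RPA1 lost it with quantile normalisation and with the authors' deposited values. TIMP1, an inhibitor of matrix proteases, rose by 0.51 (SE 0.14), the single call among 12 connective tissue and meningeal markers. PCNA and TIMP1 each lost the call in 8 of those 13 fits, and CALML4 in 6. CALML4, of the calmodulin family, rose by 0.60 (SE 0.16), CIB1, a calcium and integrin binding protein, by 0.53 (SE 0.09) and SLIRP, which stabilises mitochondrial RNA, by 0.61 (SE 0.13). LGALS15, a sheep galectin, rose by 0.69 (SE 0.18) on 2 of its 3 probes, while the remaining probe was at −0.15. The call of LGALS15 was lost with the slide as a block, with normexp background correction and in 7 of the 13 fits without 1 array.

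FCER1A, a subunit of the IgE receptor, was well above background on 0 of 6 vehicle arrays, on 2 of 4 fetal triclosan arrays and on 2 of 3 maternal ones. With fetal infusion it was at least 1.39-fold higher with triclosan, and with maternal infusion the bound gave no fold. It entered the test only through the triclosan arrays on which it was high, so its place among the called genes supports nothing.

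Of 4 erythroid markers, 2 rose and 0 fell. HBB, the beta globin gene, was at 2.35, 2.70, 2.06 and 3.61 with fetal vehicle and 3.54, 4.39, 3.53 and 4.52 with fetal triclosan, which overlap. It was at 1.68 and 3.15 against 4.52, 4.75 and 3.36 in the maternal groups, which do not. The difference was 1.5 (SE 0.34, limma adjusted p = 0.0185), and the second HBB probe was at 0.60 and did not pass. AHSP, the chaperone of free alpha globin, was at −3.77, −4.38, −4.17 and −4.29 against −3.16, −3.10, −3.74 and −2.86 with fetal infusion, and at −5.31 and −4.69 against −2.89, −3.63 and −4.16 with maternal infusion. Both arms were separated, and the difference was 1.13 (SE 0.22), with both probes called. CA1, a carbonic anhydrase of red cells, was at 0.84 (SE 0.37) and EPOR, the erythropoietin receptor gene, at −0.23 (SE 0.18), neither of which passed. AHSP was at 0.61 with normexp background correction, still called. The summed signal of the 4 markers was 4.33 to 12.3 on the fetal vehicle arrays and 11.7 to 23.2 on the fetal triclosan arrays. In the maternal arm it was 3.34 to 9 with vehicle against 10.5 to 27 with triclosan. These sums are carried by the bright gene HBB, with a mean level of 3.40 beside −3.86 for AHSP, and say little of the other markers. The amount of blood in the samples was not tested.

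Ribosomal protein genes were higher with triclosan in 11 of 17 measured cases with 0 falls (median 0.44), but 1 of 17 passed with quantile normalisation (median 0.17) and 5 with the authors' deposited values (median 0.25). RPS26 was at 5.16, 5.16, 5.05 and 5.27 with fetal vehicle and 6.11, 5.91, 5.99 and 5.69 with fetal triclosan, and at 5.18 and 4.96 against 5.68, 5.75 and 5.28 with maternal infusion. Neither arm overlapped. RPS26 rose by 0.67 (SE 0.11) on all 3 of its probes and RPL34 by 0.73 (SE 0.13) on both, RPL34 without maternal triclosan replicate 2, whose spot was marked as an outlier. RPS26 and RPL34 lost the call with quantile normalisation. Leaving out 1 array left between 5 (fetal vehicle replicate 3) and 13 ribosomal calls (maternal triclosan replicate 3), with 6 without fetal vehicle replicate 1 or 4 or fetal triclosan replicate 1, and 7 when either maternal triclosan replicate 1 or fetal vehicle replicate 2 was left out.

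These genes are among the brightest on the array, and the direction of a call went with brightness over all probes. When probes were ranked into deciles of mean signal, the dimmest decile had a median common effect of −0.10 and the brightest 0.16. The brightest decile held 221 of the 550 rises and 22 of the 1125 falls. The median of the brightest decile was −0.01 after quantile normalisation and 0.00 in the authors' values. Quantile normalisation gives every array the same distribution, so a median near 0 is largely fixed in advance there. The authors' columns share the same maximum and nearly the same median, so this may hold for them as well. Neither value says where the slope came from. The called rises among named genes had a median signal at the 95.75th percentile of all probes, and the called falls at the 46.6th. How far this slope shaped single calls was not tested.

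**Figure D4:**
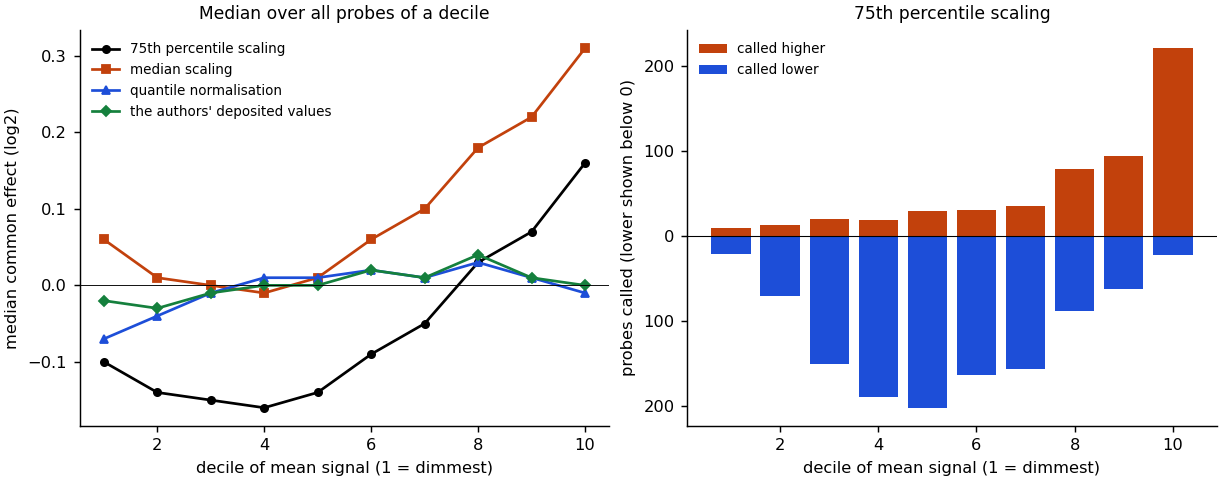
Left, median common effect of triclosan (log2) in each decile of mean signal, over all 13738 probes, under 4 scalings; right, probes called higher (above 0) and lower (below 0) per decile with 75th percentile scaling. The black line climbs to 0.16 in the brightest decile and the median scaling line to 0.31, while quantile normalisation and the authors' values stay near 0 there.

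**Figure D5:**
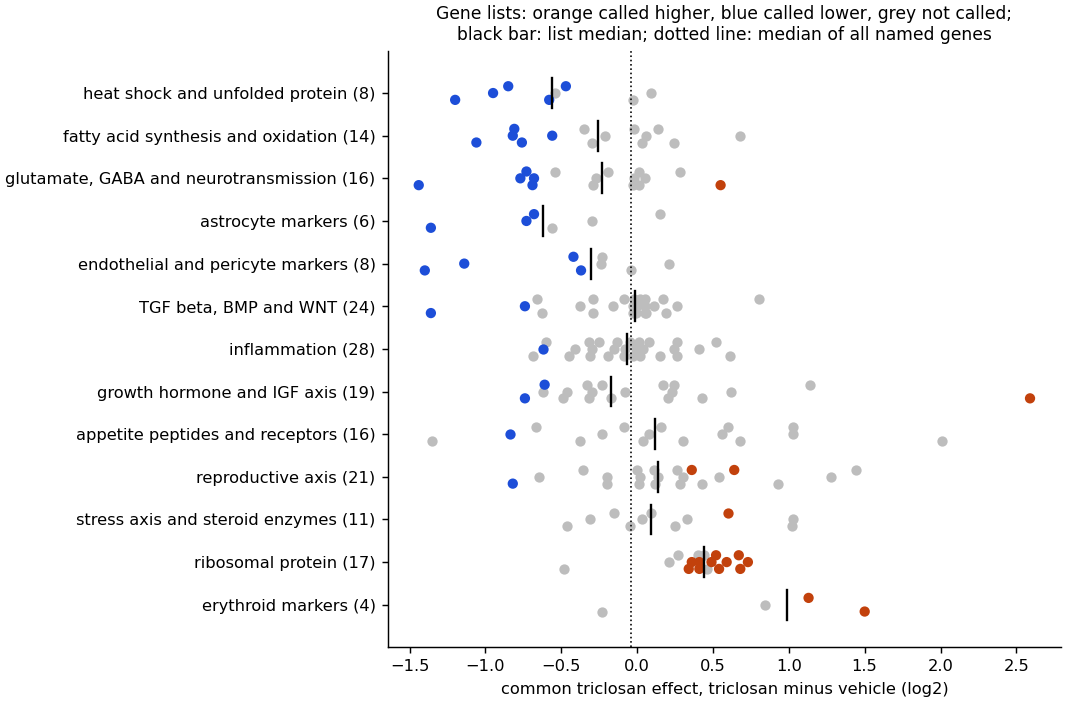
Common triclosan effect (log2) of the measured members of 13 gene lists, with the number measured in brackets; orange points were called higher, blue lower and grey were not called, black bars are list medians and the dotted line is the median of all named genes (−0.04). Heat shock (median −0.56) and astrocyte markers (−0.62) lie to the left, ribosomal proteins (0.44) and erythroid markers (0.98) to the right.

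Several lists held no call with the 75th percentile scaling. Over all probes 12.2% passed, so 0 calls in lists this short does not set them apart from the rest. They were oxidative stress (0 of 4), thyroid axis (0 of 4), mitochondrial respiration (0 of 5), apoptosis (0 of 9), circadian genes (0 of 8), lymphocyte markers (0 of 6), pituitary markers (0 of 8) and choroid plexus markers (0 of 3). The mitochondrial list leaves out the ATP synthase genes ATP5MC1 (0.37) and ATP5MC2 (0.46) and the carrier gene SLC25A6 (0.49), which were called higher. Their calls were lost with quantile normalisation and with the authors' deposited values. Other scalings made calls in some of the lists: median scaling called 2 oxidative stress genes, 1 circadian and 1 pituitary gene higher, normexp called 1 oxidative stress gene higher, and the authors' deposited values called 1 mitochondrial gene lower. In the lists of mitochondria, apoptosis, the clock and lymphocytes the members nearest to the threshold were VDAC1, a mitochondrial channel, at −0.25 (SE 0.11), BAK1, which promotes apoptosis, at −0.41 (SE 0.20), CSNK1E, a clock kinase, at −0.53 (SE 0.18) and CD247, a T cell receptor chain, at −0.85 (SE 0.38). In the pituitary list it was POMC, given above. TTR, which carries thyroid hormone and is made by choroid plexus, was at −0.10 (SE 0.81). It ran from −2.11 to 3.36 on the fetal triclosan arrays, and its sign changed with the scaling. The xenobiotic and hypoxia lists held a single call each, ABCB1 among 7 and SLC2A1 among 10.

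The arms were then compared. In the fit of a mean per group to all 13 arrays, the fetal difference called 2512 probes (18.3%). The maternal difference called 0 (0%), where 1318 had an unadjusted p under 0.05 in limma's test. The maternal difference rests on 3 against 2 arrays and the fetal one on 4 against 4, so it is less precise. Its 0 calls do not show that maternal infusion had no effect. The maternal arm shares no array with the fetal arm, although slides 1 to 3 held arrays of both. Of the 917 probes that rose in the fetal arm, 685 (74.7%) were positive in the maternal arm, where 50.4% of all probes were. Of the 1595 that fell, 1278 (80.1%) were negative there. Their maternal medians were 0.13 and −0.24 beside fetal medians of 0.53 and −0.82, the latter being the values that chose them. Among the 53 named genes that rose in the fetal arm 44 were positive in the maternal arm, and among the 80 that fell 63 were negative.

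Within the maternal arm the triclosan arrays differed. Of the 104 called genes, counted where measured, 96 lay beyond every vehicle array in the called direction on maternal triclosan replicate 1 and 77 on replicate 3. On the fetal triclosan arrays 95 (replicate 4) to 103 did so. These genes were chosen on the same arrays, so the counts describe the arrays and test nothing.

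Genes whose triclosan arrays all lay beyond the vehicle arrays in both arms numbered 60 among those named, 20 higher and 40 lower, where 2.40% and 5.36% of all probes did so. Of these genes 57 were called on the same arrays, so the separation adds no support to their calls. Those with the smallest p included HSP90AA1, PPARGC1A, ACVR1, PDIA4, RPS26 and CIB1. Of these, HSP90AA1 and CIB1 passed with and without the arm covariate. CIB1 was at 1.78, 1.44, 1.67 and 1.74 with fetal vehicle, 2.30, 2.28, 2.19 and 2.18 with fetal triclosan, 1.57 and 1.80 with maternal vehicle, and 2.04, 2.28 and 2.07 with maternal triclosan. As with HSP90AA1, every triclosan array of CIB1 lay beyond every vehicle array of either arm.

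The effect of triclosan differed between the arms at 0 probes in limma's adjusted test (0%), with 2024 at an unadjusted p under 0.05 and a lowest adjusted p of 0.152. Without fetal triclosan replicate 3, 48 probes passed. Among the named genes with the smallest unadjusted p, none of which passed, fetal minus maternal was positive for ADORA3, SOD2 and SLC1A2 and negative for MYD88, KDR and IKBKB. MYD88, the adaptor of Toll-like receptors, was −0.91 (SE 0.23) and 0.65 (SE 0.29), with the arrays separated in opposite directions. SOD2, the mitochondrial superoxide dismutase, was 0.51 (SE 0.21) and −0.85 (SE 0.27), and ADORA3, an adenosine receptor, 0.25 (SE 0.16) and −0.94 (SE 0.20). IKBKB, a kinase that activates NF-kappaB, was −1.17 (SE 0.18) and −0.03 (SE 0.23). The limma adjusted p of these 6 differences lay between 0.219 and 0.227, so a difference between the routes was not shown for any of them with all 13 arrays. SOD2 passed without fetal triclosan replicate 3 (adjusted p = 0.0457).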

How the data were processed

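Per the file headers, the authors' deposited scanner files hold spot intensity values from Agilent Feature Extraction 10.1.1.1; the processed signal is background-subtracted and not scaled between arrays. The authors' deposited value table is taken as log2: all 14 columns matched their own array best on that scale, and its normalisation is not stated. Its columns share a maximum of 19.05, with medians from 8.78 to 8.803, as quantile normalisation between arrays would give. Results from these values and from quantile normalisation may therefore be no separate checks of each other. The submitters' processing notes list limma but not what it did. Here log2 processed signal minus each array's 75th percentile was used, without control spots or outlier-marked spots (250 missing values), for probes well above background on at least 3 arrays (13738). limma 3.58.1 in R 4.3.3 fitted triclosan with the arm as covariate (10 residual and 2.48 prior degrees of freedom), or a mean per group for the arms, two-sided, with Benjamini-Hochberg adjustment at 0.05 over all probes. The number of arrays limits the precision. On simulated data the fit recovered 73% of changes of 1 and 94% of changes of 2 on the log2 scale, with 15 false calls. The simulated noise was independent between probes and arrays, with no arm or slide effect. For each size, 100 probes were changed equally in both arms, so these figures need not hold for the real arrays. Names came from the files, the supplied gene table (RefSeq, assembly not that of the files) and aliases written by hand from the files' descriptions: 1556 of 15008 probes carried 1 of 951 gene names, and each gene stands by its probe of highest mean. No genome build is named, so no coordinates are given. Tables were made with pandas 2.3.3 and numpy 2.4.6, and plots with matplotlib 3.10.9, under Python 3.11.15.

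The members, the gene lists and the tests were chosen with earlier results of these data known. Named are the 12 largest called rises and falls, up to 3 called members per list or, from 5 measured members on, the nearest, 11 set genes, the 4 smallest p each way for the arm difference, and 8 genes separated in both arms. Members named beyond this rule, to complete a count or give a defining marker, were chosen after their values were seen. Alternatives changed the background correction, scaling, values, filters, arrays, covariates and weights. The slide as a random block, and normexp with quantile normalisation, were added after seeing the data. Some genes that the rule names are not reported here, and counts include them.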

Additional observations from a re-analysis of the deposited data

Results flagged for a closer look

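Of 65 named genes, each tested in the 2 groups of 4 arrays, 5 had an array far from the other 3 of its group by Dixon's test of the gap as a share of the range. Chance gives about 1 in 20, or 6.5 of the 130 groups, so this number is not above chance. On fetal triclosan replicate 2, ITGAM was at −5.70, TNFRSF1A at −5.79 and JUND at −2.14, each below the other arrays of that group. On fetal triclosan replicate 3, STAT5A was at −4.12, above the others at −4.55 to −4.52. On fetal vehicle replicate 1, MYD88 was at −3.71, below the others at −3.41 to −3.35.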

How the results depend on the processing

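The 1675 called probes became 29 with no arm covariate and 2656 with the slide as a block, and 717 to 2219 in fits without 1 array. The 104 called named genes became 68 with quantile normalisation, 2 with no arm covariate, 166 with the slide as a block, and 46 to 130 without 1 array. Without any 1 array the median signal differed by −0.336 to −0.243, the share above background by −2.18 to −1.02 and the early-late difference by −0.169 to −0.0374. The arm difference called 0 probes, but 1 with quantile normalisation, 7 with all 14 arrays, and 0 to 48 without 1 array. All 104 genes kept their sign in every alternative that tested them, except RPS27A, named after its values were seen, under both settings with quantile normalisation. Of the 104, 87 kept the call with normexp, 60 with quantile normalisation, 80 with median scaling, 69 with the authors' values and 98 with the slide as a block, in which an array alone on its slide carries no weight. TTR changed sign with median scaling (0.06), with array weights (0.34) and in 7 fits without 1 array, which ran from −0.69 to 0.38. Whether the labels' replicate numbers pair the samples is unknown. In their deviations from the group means, same-numbered arrays of the fetal arm correlated at 0.131, 0.118, 0.265 and −0.171. Those of the maternal arm correlated at −0.084 and −0.076, and same-numbered arrays of different arms at −0.08 to 0.463. Same-numbered arrays up to replicate 3 also shared a slide, so these values cannot settle the pairing. The replicate block called 2091 probes and 131 named genes, 96 of the 104 among them. GHRH, ABCB1, SLC2A1, SLC1A2 and FBXO32 lost the call with it, and 2 of 8 endothelial genes passed in place of 4. Probes not well above background limit what can be said of FCER1A and MC5R. No result was weighed for its cause.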
